A study of Sus scrofa with 12 samples.

Results

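Excitation-contraction coupling genes were described in the muscle of 12 pigs. The genes were those of the voltage sensor and the junctional sarcoplasmic reticulum, and they were chosen by name: CACNG1, CACNB1, CACNA1S and STAC3 for the voltage sensor, and TRDN, ASPH, JPH1, JPH2 and SRL for the junction. Of these 9 genes, 6 had an Ensembl pig ID among the 20741 features of the whole-genome count tables. They were CACNG1 (ENSSSCG00000017271), CACNB1 (ENSSSCG00000017510), TRDN (ENSSSCG00000027613), ASPH (ENSSSCG00000025087), JPH1 (ENSSSCG00000006174) and SRL (ENSSSCG00000007949). All 6 passed the filter on low counts, which left 10627 tested features. CACNA1S, STAC3 and JPH2 were not analysed here.

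The study compared muscle of animals with high drip loss, the water that meat loses after slaughter, against muscle of animals with low drip loss. The 6 high drip animals were 3 males and 3 females of 167 to 186 days, and the 6 low drip animals were 3 males and 3 females of 172 to 189 days. The labels named the tissue only as muscle, and gave no breed and no muscle by name. Each animal gave 1 mRNA library, and each library held between 8009627 and 12622043 counts in features.

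In skeletal muscle an action potential travels down the T-tubule, where it moves the voltage sensor, an L-type calcium channel whose pore subunit is CACNA1S. The sensor touches the ryanodine receptor of the facing sarcoplasmic reticulum and opens it, and the calcium released starts contraction. Calsequestrin holds the calcium inside the reticulum, triadin and junctin tie it to the release channel, junctophilins hold the T-tubule and reticulum membranes together, and the calcium pump returns the ion to the store. In pigs this pathway is known for the RYR1 mutation behind malignant hyperthermia and pale, exudative meat, in which calcium release is not properly closed.

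Several libraries stood apart from their labels or from the others. For 3 females (low drip replicate 1, high drip replicate 2 and low drip replicate 2) the whole-genome table recorded for the animal carried another animal's number. Tables were assigned here by the number they carry, and each result of the drip contrast is also given with the recorded assignment or without these 3 animals where that turns it. All 3 are female, so the same libraries enter the males and the females under either assignment. Liver transcripts were present in 6 libraries, with ALB, the plasma protein of the liver, at 25.6 to 317 CPM, counts scaled to a common library total of 1000000, against 0.327 to 2.49 CPM in the other 6. The summed level of the 9 liver markers with an ID, of 12 listed, was 44.4 to 547 CPM in these 6 libraries and 2.94 to 8.88 CPM in the others, and none of the 9 was at 0 in all libraries. Liver transcripts were in all 3 high drip females and no low drip female, and in 1 high drip male and 2 low drip males, so in females drip and liver transcripts cannot be told apart. Skeletal muscle markers were high in every library, with ACTA1, skeletal actin, at 62160 to 86490 CPM, MYL1, a fast myosin light chain, at 19860 to 30440 CPM, and DES, desmin, at 5870 to 8869 CPM. Of the cardiac markers with an ID, RYR2 reached at most 1.67 CPM and NPPB at most 0.0881 CPM. MYH6 was at 8609 to 15890 CPM, a value left uncertain, since sharing of reads with closely similar myosin heavy chain genes was not tested.

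CACNG1 and CACNB1 encode the gamma and beta subunits of the voltage sensor, and neither differed between high and low drip animals in edgeR's test. CACNG1, the gamma subunit that skeletal muscle expresses with the sensor, had a lowest, median and highest level of 237, 251 and 279 CPM in high drip animals, against 189, 261 and 385 CPM in low drip animals. The high drip animals lay inside the range of the low drip animals, with a coefficient of variation of 6.32% in high drip animals and 29.0% in low drip animals. The fitted log2 difference of CACNG1 was -0.11 ± 0.13 (SE, 6 animals each, edgeR adjusted p = 0.999).

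CACNB1, the beta subunit that brings the channel to the membrane, had a lowest, median and highest level of 307, 337 and 428 CPM in high drip animals, against 277, 321 and 483 CPM in low drip animals. Low drip replicate 3, a female, had the highest level of CACNB1, and every high drip animal lay inside the range of the low drip animals. The log2 difference was 0.05 ± 0.11 (edgeR adjusted p = 0.999), and it was -0.03 over the 9 animals without a conflict between record and number.

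TRDN and ASPH encode the proteins that link the calcium store to the release channel. TRDN, triadin, had a lowest, median and highest level of 131, 186 and 232 CPM in high drip animals, against 145, 233 and 270 CPM in low drip animals. The high drip males lay at 176, 196 and 232 CPM and the low drip males at 222, 254 and 270 CPM, so a single high drip male reached the low drip males. The high drip females lay at 131, 165 and 225 CPM and the low drip females at 145, 192 and 245 CPM, which overlap. The log2 difference of TRDN, -0.23 ± 0.15, did not pass (edgeR adjusted p = 0.999, 0.794 to 1.00 over all alternatives run). With the tables as recorded it was -0.024 ± 0.16 over the 12 animals.

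ASPH encodes aspartyl beta-hydroxylase together with junctin and junctate, which start from the same locus, and counts per gene cannot separate these products. ASPH was the lowest in counts, with 71 to 162 counts per library. Its lowest, median and highest level was 8.67, 10.9 and 12.9 CPM in high drip animals, against 8.33, 11.4 and 15.0 CPM in low drip animals. The groups overlapped, and the log2 difference was -0.16 ± 0.13 (edgeR adjusted p = 0.999), and -0.020 ± 0.13 with the tables as recorded. With the tables as recorded, the difference in females alone was 0.20 for ASPH and 0.26 for TRDN, the other way from the difference over all animals.

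JPH1 encodes junctophilin 1, which bridges the T-tubule and the reticulum, and SRL encodes sarcalumenin, a calcium-binding protein of the reticulum lumen. JPH1 had a lowest, median and highest level of 475, 570 and 624 CPM in high drip animals, against 475, 586 and 706 CPM in low drip animals. SRL had 594, 698 and 748 CPM in high drip animals, against 474, 637 and 807 CPM in low drip animals. In each of these genes every high drip animal lay inside the range of the low drip animals. The log2 differences were -0.06 ± 0.12 for JPH1 and 0.11 ± 0.12 for SRL (edgeR adjusted p = 0.999 for each).

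**Figure D1:**
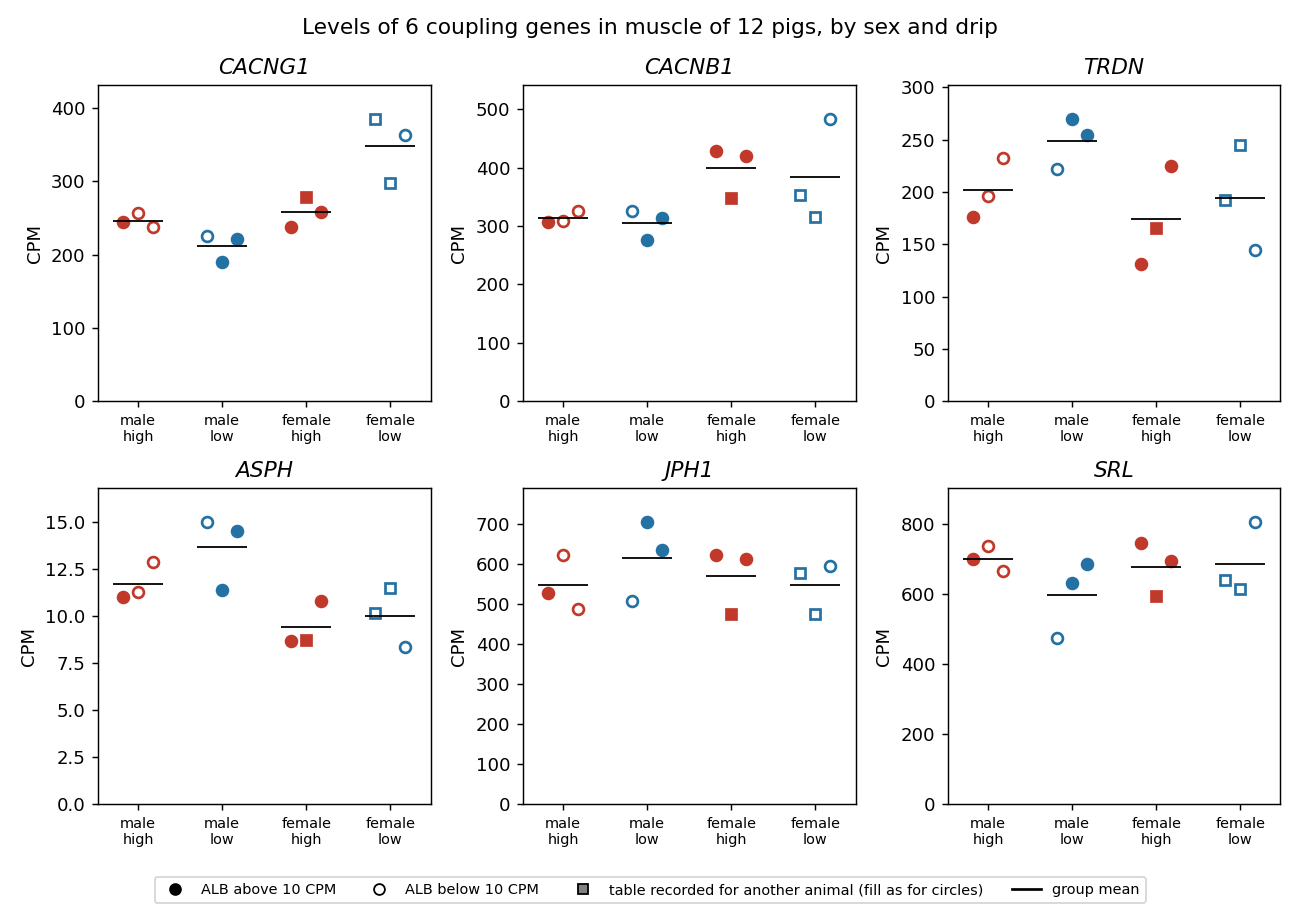
CPM of the 6 genes in each of 12 pigs, in 4 groups of 3 by sex and drip (red for high drip, blue for low drip), with a line at each group's mean. Filled symbols are libraries with ALB above 10 CPM, and squares are the 3 females whose recorded table carries another animal's number. CACNG1 is the gene whose drip groups do not overlap in either sex, with high drip males above low drip males and high drip females below low drip females.

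Of the 6 genes, 0 passed an adjusted p of 0.05 between high and low drip animals, and 0 of all 10627 features did (0%), so the share of members called equals that of all features. At an unadjusted p under 0.05, 0 of 6 members and 380 of all features (3.58%) were counted, with 363 by DESeq2 and 371 by limma voom, and neither of those tools passed any feature after adjustment. High drip animals were higher in 2 members and lower in 4, with a median log2 difference of -0.08 over the 6, against 0.0017 over all features. The high and low drip animals overlapped in all 6 members, and they did not overlap in 0.113% of all features. Fewer cells of a type and less RNA per cell cannot be told apart in these bulk samples.

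The biological coefficient of variation was edgeR's estimate of the spread between animals left after additive terms for sex and drip, so any interaction between them remains in it. It was 14.9% for ASPH, 15.3% for CACNB1, 16.1% for SRL, 16.3% for JPH1, 17.0% for CACNG1 and 19.3% for TRDN. Each was below the median of 19.7% over all tested features. In mean CPM every member but ASPH was above at least 95.3% of tested features, and the spread was not compared with features of like level. Over all 12 animals the highest level was 2.06 times the lowest for TRDN, 2.03 times for CACNG1, 1.80 times for ASPH and 1.75 times for CACNB1. It was 1.70 times for SRL and 1.49 times for JPH1, which were the steadiest members by this measure.

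Between males and females the fitted log2 differences were negative for the voltage sensor subunits CACNG1 and CACNB1 and positive for ASPH and TRDN, and no member passed the adjusted threshold. CACNG1 had a lowest, median and highest level of 189, 231 and 257 CPM in males, against 238, 288 and 385 CPM in females. CACNB1 had 277, 311 and 326 CPM in males, against 315, 386 and 483 CPM in females. For each of these voltage sensor subunits the upper males overlapped the lower females.

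The log2 difference between males and females was -0.39 ± 0.13 for CACNG1 and -0.34 ± 0.11 for CACNB1 (SE, 6 animals each, edgeR adjusted p = 0.669 for each). Among the p-values of all 10627 features these ranked 115 and 118 from the smallest. Without the 3 females in conflict, the CACNB1 difference was -0.52 ± 0.10 (edgeR adjusted p = 0.657). With age as a term, which was a median of 172 days in males and 180 days in females, the differences were -0.33 for CACNG1 and -0.25 for CACNB1.

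The genes of the release channel link lay the other way. ASPH had a lowest, median and highest level of 11.0, 12.1 and 15.0 CPM in males, against 8.33, 9.44 and 11.5 CPM in females, so that 3 males lay below the highest female and 3 above all females. The log2 difference of ASPH was 0.38 ± 0.13 (edgeR adjusted p = 0.679, rank 136). TRDN had 176, 227 and 270 CPM in males, against 131, 179 and 245 CPM in females, with a log2 difference of 0.29 ± 0.15 (edgeR adjusted p = 0.764). JPH1, at 0.05 ± 0.12, and SRL, at -0.08 ± 0.12, lay close to 0, and JPH1 was at -0.09 without the 3 females in conflict.

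No member passed an adjusted p of 0.05 between males and females, and 0 of 10627 features did (0%). DESeq2 passed 2 features and limma voom 0, none of them a member. At an unadjusted p under 0.05, 3 of 6 members (CACNG1, CACNB1 and ASPH) and 681 of all features (6.41%) were counted, with 690 by DESeq2 and 709 by limma voom. The median size of the log2 difference, without its sign, was 0.31 over the 6 members and 0.14 over all features. All 6 members overlapped between males and females, and 0.301% of all features did not overlap.

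**Figure D2:**
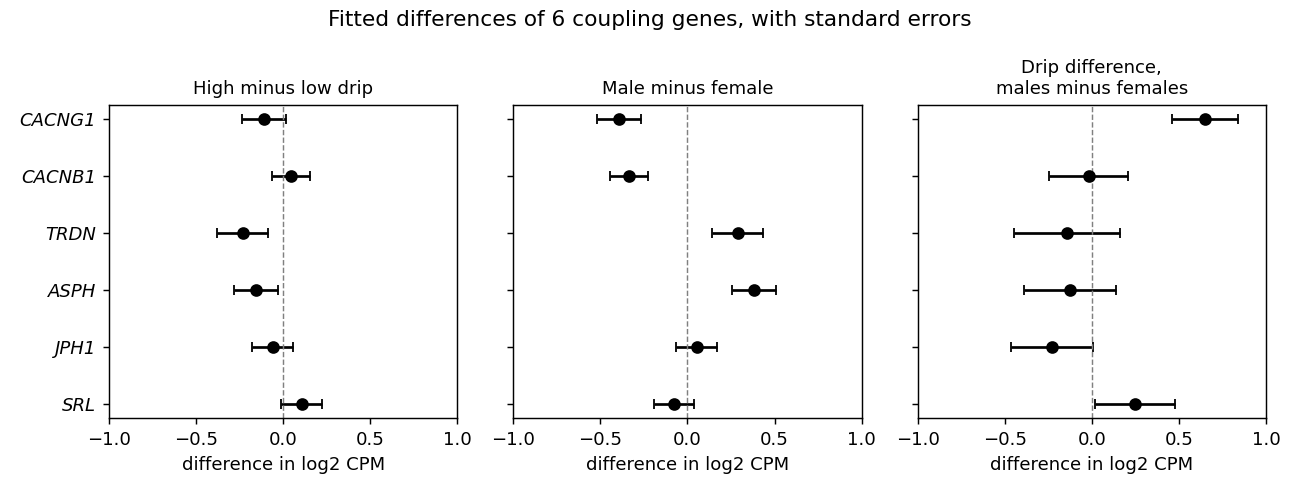
Fitted log2 differences of the 6 genes with their standard errors, for high minus low drip (left), male minus female (middle) and the drip difference in males less that in females (right). The drip differences lie between -0.23 and 0.11, the sex differences between -0.39 and 0.38, and CACNG1 stands at 0.65 on the right.

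The drip difference of CACNG1 ran in opposite directions in the sexes. The high drip males had 245, 257 and 237 CPM, against 225, 189 and 221 CPM in low drip males, so every high drip male was above every low drip male. The high drip females had 238, 279 and 259 CPM, against 385, 297 and 364 CPM in low drip females, so every high drip female was below every low drip female. This pattern, non-overlapping groups with high drip lower in females and higher in males, was seen in 21 of 10627 features (0.198%), and in 1 of the 6 members. Groups that did not overlap in either sex, with opposite directions of either kind, were seen in 35 features (0.329%). Within a single sex the drip groups did not overlap in 9.64% of features in males and 6.91% in females.

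The drip difference in males less that in females was 0.65 ± 0.19 on the log2 scale for CACNG1 (SE, 3 animals in each of 4 groups), ranking 41 by p among all features and not passing (edgeR adjusted p = 1.00, 0.323 to 1.00 over all alternatives run). It was 0.59 with the tables as recorded, where the female groups overlapped, and 0.75 over the 9 animals without a conflict. With liver transcripts as a term it was 0.55 ± 0.27. All high drip females and no low drip female carried them, so in females this term cannot be told apart from drip.

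The other 5 members had interaction terms between -0.23 for JPH1 and 0.25 for SRL. No member passed the adjusted threshold, and 0 of all features did (0%), against 7 by DESeq2, none of them a member, and 0 by limma voom. At an unadjusted p under 0.05, 1 of 6 members, CACNG1, and 371 of all features (3.49%) were counted, with 329 by DESeq2 and 340 by limma voom. With liver transcripts as a term, 0 of 6 members had an unadjusted p under 0.05.

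Between libraries with and without liver transcripts no member passed the adjusted threshold, and 13 of all features did (0.122%). The split was made on ALB in these same libraries, and 5 of the 13 were liver markers, ALB among them, so that share is partly set by the split. CACNG1 had a lowest, median and highest level of 189, 241 and 279 CPM in libraries with liver transcripts, against 225, 277 and 385 CPM in libraries without them, with a log2 difference of -0.28 ± 0.11 (edgeR adjusted p = 0.752). It was the 1 member of 6 with an unadjusted p under 0.05, as were 673 of all features (6.33%). JPH1 was at 0.16 ± 0.12, and the other 4 members lay between -0.04 and 0.05. The count of 13 was 0 without high drip replicate 6, 6 without high drip replicate 5, low drip replicate 3 or low drip replicate 5, and 21 without high drip replicate 1 or 2.

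Over the 12 animals, Pearson's r between members ran from -0.69 to 0.79. Of the 15 pairs, ASPH and TRDN were the most alike, and their products include junctin and triadin, which sit together at the release channel. Pearson's r of their log2 CPM was 0.79 (permutation p = 0.00247) and Spearman's rho was 0.79 (permutation p = 0.0033). Adjusted over all tested features, p was 0.301 with ASPH held fixed and 0.0809 with TRDN held fixed, so the pair did not pass. Split by liver transcripts, r was 0.81 with them and 0.82 without them (6 libraries each). It was 0.81 without the 2 libraries farthest from the median of ASPH and 0.74 to 0.85 on leaving out each animal in turn. With the means of sex and drip removed it was 0.66, and it was 0.43 within males and 0.95 within females (6 each).

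CACNB1 had negative correlations with both of these genes over the 12 animals, and not within males for ASPH. Its r with TRDN was -0.69 (permutation p = 0.0129) and its rho -0.62 (permutation p = 0.0368), with adjusted p-values of 0.274 and 0.163 for r over all features. The r was -0.58 in libraries with liver transcripts and -0.89 in those without, and it was -0.29 without the 2 libraries farthest from the median of CACNB1, so it rests in part on those libraries. It was -0.33 within males and -0.62 within females. CACNB1 and ASPH had an r of -0.64 (permutation p = 0.0247) and a rho of -0.62 (permutation p = 0.0348), with adjusted p-values for r of 0.311 and 0.411. This r was -0.30 without the 2 farthest libraries and -0.19 with the means of sex and drip removed. It was 0.61 within males and -0.60 within females, so it did not hold within each sex.

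The remaining 12 pairs had r between -0.54 (CACNG1 and ASPH) and 0.53 (CACNG1 and CACNB1), and unadjusted permutation p-values for r above 0.05. For CACNG1 and ASPH the rho was -0.63 (permutation p = 0.0333, adjusted 0.617 with CACNG1 held fixed). The voltage sensor subunits, at 0.53, had an r of 0.13 with the means of sex and drip removed. JPH1 and SRL had an r of 0.47, which was 0.61 with these means removed. JPH1 had r near 0 with TRDN (0.05), ASPH (-0.08) and CACNB1 (0.09) over all 12 animals, which held values of opposite sign for some splits. With CACNB1 it was -0.81 within males and 0.80 within females, and with TRDN it was 0.54 with liver transcripts and -0.78 without them. The difference between these splits was not tested.

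**Figure D3:**
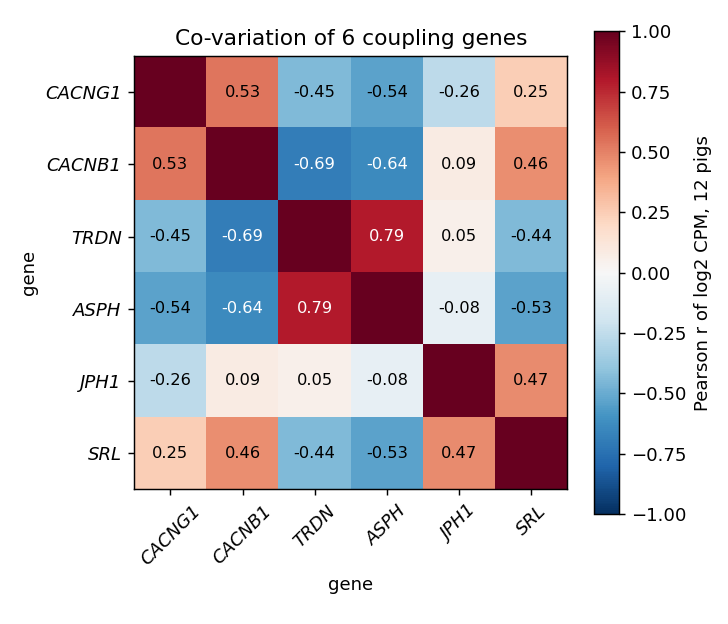
Pearson's r of log2 CPM over 12 pigs for each pair of the 6 genes. ASPH and TRDN stand at 0.79, CACNB1 stands at -0.69 with TRDN and -0.64 with ASPH, and JPH1 is near 0 with TRDN, ASPH and CACNB1 over all animals.

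CACNB1 also followed a measure of the libraries. The share of the table sum counted as alignments in no annotated feature was 26.6% to 29.3% in males (median 27.4%), against 24.2% to 28.0% in females (median 25.5%). Its r with CACNB1 was -0.89 (permutation p = 6e-05) and its rho -0.81 (permutation p = 0.00223). Over the 49 relations computed between 7 library measures and the 6 members with the CACNB1 to TRDN ratio, the adjusted p was 0.00294 for r and 0.109 for rho. The r was -0.80 without the 2 farthest libraries, -0.96 within libraries with liver transcripts, -0.83 within those without them, -0.59 within males and -0.93 within females. Of all 10627 features, CACNB1 ranked 5 by the size of this r, and adjusted over all of them its p was 0.154. TRDN had an r of 0.67 with the same share (permutation test, adjusted p = 0.159 over the 49 relations). The log2 ratio of CACNB1 to TRDN had an r of -0.83 (permutation p = 0.00087, adjusted 0.0213) and a rho of -0.77 (permutation p = 0.00507, adjusted 0.124) with it, and an r of -0.67 without the 2 farthest libraries. A further library measure, the share of alignments counted as ambiguous, had an r of -0.72 with TRDN, 0.67 with CACNB1 and 0.76 with their log2 ratio. None of these 3 passed over the 49 relations (permutation test, adjusted p = 0.118, 0.159 and 0.0947). The part of these shares in the sex differences of CACNB1, of TRDN and of their ratio was not tested.

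**Figure D4:**
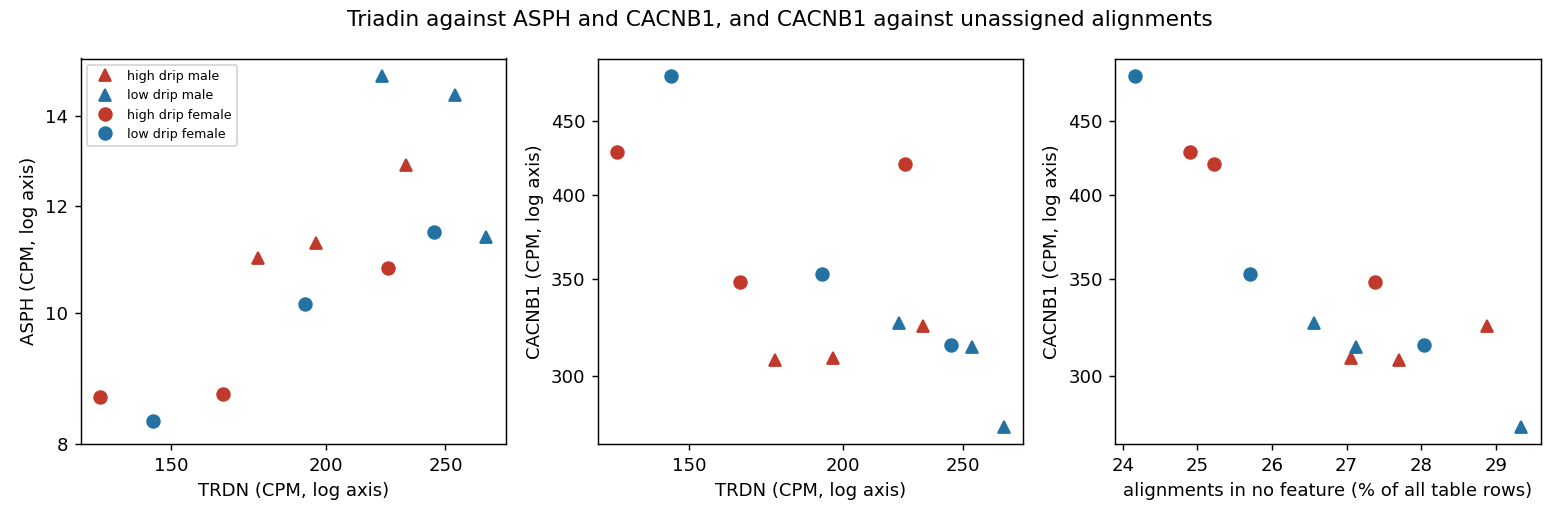
ASPH against TRDN (left), CACNB1 against TRDN (middle) and CACNB1 against the share of the table sum in no feature (right), in CPM on log axes and percent, for 12 pigs by sex and drip. ASPH is higher where TRDN is higher (r = 0.79), and CACNB1 is lower where TRDN (r = -0.69) or the unassigned share (r = -0.89) is higher.

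Stoichiometry was taken as the ratio of each gene's counts to those of TRDN in the same library, which needs no scaling between libraries. Since the genes differ in length, a ratio says nothing of how many transcripts of each gene there were, and it is compared only between animals. All 5 ratios share the counts of TRDN, whose own log2 difference between high and low drip animals was -0.23. They therefore carry that difference and are not separate results. The ratio of CACNB1 to TRDN ran from 1.4 to 3.26 in high drip animals, against 1.02 to 3.33 in low drip animals. The log2 ratio of SRL to TRDN was 0.35 higher in high drip animals (exact permutation p = 0.193, adjusted over all features 0.694), the largest drip difference of the 5 ratios. The other 4 log2 ratios were 0.09 to 0.29 higher in high drip animals, with exact permutation p-values from 0.357 to 0.686, and 0 of 5 had an unadjusted p under 0.05, against 470 of 10626 features (4.42%).

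By sex, a comparison added after the data were seen, the ratios to TRDN of both voltage sensor subunits were lower in males. TRDN itself had a log2 difference of 0.29 between males and females, so these ratios restate the differences of the single genes given above. CACNG1 had 0.702 to 1.39 counts per TRDN count in males, against 1.15 to 2.51 in females, and CACNB1 had 1.02 to 1.74 in males, against 1.29 to 3.33 in females. The groups overlapped in each gene. The log2 ratios were -0.70 for CACNG1 (exact permutation p = 0.0173) and -0.64 for CACNB1 (exact permutation p = 0.026), with an adjusted p of 0.384 over all features for each. In the 9 animals without a conflict, 6 males and 3 females, CACNB1 was at -0.98 with groups that did not overlap (exact permutation p = 0.0119, the smallest possible). JPH1 was at -0.54 (exact permutation p = 0.0357), and CACNG1 at -0.76 and SRL at -0.68 (exact permutation p = 0.0595 for each). The adjusted p-values of these ratios were 0.236 to 0.246. In the same 9 animals 2146 of 10626 features had an unadjusted p under 0.05, and how many did not overlap was not counted. Of the 5 ratios over 12 animals 2 had an unadjusted p under 0.05, against 1275 of 10626 features (12.0%), and 0 features passed after adjustment. The ratio of ASPH to TRDN was the steadiest, at 0.0423 to 0.0675 in males, against 0.047 to 0.0661 in females (log2 ratio 0.07, exact permutation p = 0.571).

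The genes whose pattern over the 12 libraries was most like each member's are given as a description, by Pearson's r of log2 CPM, over features with a gene symbol, while for SRL features without a symbol reached 0.89. CACNG1 was most like EXOSC2 (0.92) and NUDC (0.84), and CACNB1 was most like VPS4A (0.92) and RNF5 (0.92). TRDN was most like EIF5B (0.97), and ASPH was most like UBA3 (0.91) and KRIT1 (0.91). JPH1 was most like ANK3 (0.92) and LTA4H (0.87), and SRL was most like RNF43 (0.85) and MGST3 (0.84). By the mean r over the 6 members, the highest genes were USP2, PDK2, SUPT3H, RANBP2 and ZNF133, at only 0.27 to 0.29.

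TRDN was the member with features past an adjusted permutation p of 0.05 for r, with 65 of 10626 (0.612%), of which 62 were positive and 3 negative. None of the 65 was a member. The count was 0 without low drip replicate 5, 3 without low drip replicate 3, 10 without high drip replicate 1, 20 without low drip replicate 6, 26 without high drip replicate 6 and 101 without low drip replicate 2. The other 5 members had 0 such features, although r reached -0.95 for CACNG1. The permutations run for r allowed no p below 1e-05. Adjusted over 10626 features, a lone feature at that p cannot pass, whatever its r. A count of 0 therefore does not show that no feature follows these members. Whether this limit shaped the changes in the count for TRDN was not tested.

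The rest of the pathway was read from lists of 69 further tested genes, none of which passed between high and low drip animals or between males and females. High drip animals were higher in 42 and lower in 27 of them, and 3 of 69 (4.35%) had an unadjusted p under 0.05, a share near the 3.58% of all features. High drip animals were higher in 60.9% of the 69 genes and in 50.4% of all features. These 3, named after their values were seen, were SLC8A3, a sodium-calcium exchanger, at -0.38 ± 0.13, PHKG1, the catalytic subunit of phosphorylase kinase, at 0.31 ± 0.12, and HOMER3, a scaffold protein, at 0.24 ± 0.11 (log2 difference ± SE, edgeR adjusted p = 0.999 for each).

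Of 18 tested genes of calcium release and its partners, 12 were higher and 6 lower in high drip animals, with a median log2 difference of 0.05. CASQ1, the calsequestrin of fast muscle, averaged 10610 ± 963 CPM in high drip animals and 10280 ± 1173 CPM in low drip animals (SD, 6 each), a log2 difference of 0.05 ± 0.09. Of 7 genes of calcium uptake and buffering, 6 were higher and 1 lower (median 0.08). ATP2A1, the calcium pump of fast fibres, averaged 13490 ± 1377 CPM in high drip animals and 13270 ± 3032 CPM in low drip animals, and SLN, its inhibitor sarcolipin, averaged 8629 ± 1982 and 8394 ± 1472 CPM in these groups.

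Of 11 genes that build or repair T-tubules and triads, 6 were higher and 5 lower in high drip animals (median 0.01), with BIN1, which bends the T-tubule membrane, at 0.10 ± 0.11. Of 12 genes of the muscle action potential, 5 were higher and 7 lower (median -0.01), with SCN4A, the muscle sodium channel, at 0.24 ± 0.16. Of 8 genes of calcium entry and extrusion, 2 were higher and 6 lower (median -0.07), with STIM1, the calcium sensor of the store, at -0.07 ± 0.13. Of 13 genes of calcium-dependent signalling, 11 were higher and 2 lower (median 0.09), with PHKB, a regulatory subunit of phosphorylase kinase, at 0.23 ± 0.11. This list held kinases and phosphatases, and also RCAN1 and the NFATC transcription factors.

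Fibre type genes were checked beside these, since the coupling proteins differ between fast and slow fibres. All 6 tested fast fibre genes, of 13 listed, were higher in high drip animals (median log2 difference 0.11, from 0.01 to 0.41) and 0 passed, with MYL1 at 0.13 ± 0.10. Among them ATP2A1, PVALB and MYLK2 were already counted in the lists above. Of 5 slow fibre genes 3 were higher and 2 lower (median 0.02), with TNNC1, slow troponin C, at 0.02 ± 0.13. Among markers of other cells, all 4 tested adipocyte genes were lower in high drip animals (median -0.60) and 0 passed. Of these 4, 2 had an unadjusted p under 0.05 in edgeR's test, against 3.58% of all features. The summed adipocyte level was 60.1 to 478 CPM in high drip animals and 136 to 573 CPM in low drip animals. All 5 smooth muscle and pericyte genes were lower (median -0.12) and 8 of 9 liver markers higher (median 1.67) in high drip animals, and 0 passed. All 3 tested endothelial genes were higher in high drip animals (median 0.24), and 0 passed. In males all 4 adipocyte genes (median 0.35) and all 5 fibroblast genes (median 0.23) were higher and all 9 liver markers lower (median -0.50) than in females, and 0 passed. The summed adipocyte level was 102 to 573 CPM in males and 60.1 to 240.1 CPM in females, and the summed fibroblast level 3128 to 5271 CPM in males and 2797 to 5060 CPM in females. The part of these cells in the values of the members was not tested.

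Between males and females, 34 of the 69 pathway genes were higher and 35 lower in males, and 4 of 69 (5.80%) had an unadjusted p under 0.05, a share near the 6.41% of all features. Among these, named after their values were seen, were SDF4, a calcium-binding protein of the Golgi lumen, at -0.27 ± 0.09 and SLC8A3 at -0.33 ± 0.13, lower in males, and KCNE3, an accessory subunit of potassium channels, at 0.56 ± 0.19, higher in males, none of which passed (log2 difference ± SE). Over the 12 libraries ITPR2, an inositol trisphosphate receptor, had the highest r of the 69 genes with TRDN (0.85) and with ASPH (0.69). These r share the libraries and their depth and are given without a test.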

How the data were processed

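The authors deposited raw read counts per gene, 2 tables per animal (whole genome and chromosomal regions), for 12 pigs. TopHat2 2.0.3, Bowtie 0.12.7.0, HTSeq and the build Sscrofa10.2 are named in the submitters' processing notes, and the labels' protocols give Trizol RNA and TruSeq v2 libraries. The strand setting is not given in the sources used here, so overlapping and antisense genes cannot be told apart.

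The whole-genome tables were assigned by the animal number they carry: with this assignment an animal's 2 tables shared 737 to 745 identical counts of 770 region features, and otherwise at most 167. No member was among the region features. Rows that name no gene (39.9% to 44.4% of the table sums) were left out. Symbols came from a table of gene IDs that matched 10349 of 20300 Ensembl IDs.

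Features were compared in edgeR 4.0.16 under R 4.3.3 (filterByExpr, TMM, quasi-likelihood F-test, two-sided, Benjamini-Hochberg over all tested features, threshold 0.05), with terms for sex and drip. The SE of an edgeR log2 difference was derived from this test, as the size of the difference divided by the square root of F. Member and list CPM used TMM-scaled totals, while ALB and marker CPM used unscaled totals. Libraries were split for liver transcripts at 10 CPM of ALB. Correlations used log2 CPM with a prior count of 2 and 100000 permutations, adjusted for each member over all features. Ratios used an exact permutation test over 924 regroupings, with 0.5 added to each count. The smallest p these allow is 0.00217. The ratio was planned against CACNA1S, and TRDN was used in its place. Alternatives included DESeq2 1.42.0 and limma 3.58.1 voom. Steps were tested on simulated data. Replicates are separate animals.

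The members and lists were chosen with earlier results of these data known. The text names the members, examples drawn from the 4 genes of each list with the highest mean CPM, 2 genes most like each member and the 5 most like all members. A few items that fell under these rules are not reported here.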

Additional observations from a re-analysis of the deposited data

Results flagged for a closer look

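CACNB1 in low drip replicate 3, a female, was at 483 CPM, which lay far from the other 5 low drip animals, at 277 to 353 CPM. This was the single sample set apart among 24 groups of 6 animals examined (6 genes, by drip and by sex), and chance sets apart about 1 group in 20. The same library had the lowest share of the table sum in no feature, 24.2%. Without it the drip difference of CACNB1 was 0.14 and the sex difference -0.25 on the log2 scale.

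CACNG1 had a drip difference in males less that in females of 0.65 on the log2 scale, since all 3 high drip males lay above all 3 low drip males and all 3 high drip females lay below all 3 low drip females. The test of this difference did not pass (edgeR adjusted p = 1.00). In males alone the drip difference was 0.22. The female groups overlapped with the tables as recorded.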

How the results depend on the processing

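No paired analysis was run, because the replicate numbers follow accession order and the labels do not say whether animals were paired. The planned ratio to CACNA1S was not run, and the ratio to TRDN stood in its place. No member passed the adjusted threshold under any alternative run for the 4 contrasts.

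Leaving out 1 animal in turn, the log2 drip difference ran from -0.010 to 0.14 for CACNB1 and from -0.11 to 0.0039 for JPH1, and the sex difference of JPH1 from -0.011 to 0.096. The interaction ran from -0.22 to 0.11 for CACNB1 and from -0.34 to 0.076 for TRDN. The difference with liver transcripts ran from -0.089 to 0.033 for CACNB1, from -0.12 to 0.040 for ASPH, from -0.034 to 0.13 for TRDN and from -0.049 to 0.080 for SRL. Correlations ran from -0.38 to 0.0017 for CACNG1 and JPH1, from -0.011 to 0.41 for CACNB1 and JPH1, from -0.29 to 0.064 for ASPH and JPH1, and from -0.22 to 0.23 for TRDN and JPH1. The features past the threshold numbered 0 to 21 for liver transcripts and 0 to 101 for likeness to TRDN.

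With no filter on low counts 1 feature passed for sex and 31 for liver transcripts. DESeq2 passed 2 for sex, 7 for the interaction and 22 for liver transcripts, and limma voom 7 for liver transcripts. With liver transcripts as a term 1 passed for the interaction. The 65 features like TRDN became 325 with no scaling factor, 168 with the means of sex and drip removed, and 22 in the 9 animals without a conflict.

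Single values that turned, with causes not tested, were as follows. In the 9 animals the drip difference was -0.032 for CACNB1, the sex difference -0.091 for JPH1, and the interaction 0.21 for CACNB1. The CACNB1 interaction was 0.063 with the tables as recorded, and 0.056 with liver transcripts as a term as well, and JPH1's was 0.0018 with that term. The drip difference was 0.059 for JPH1 and -0.014 for SRL in females alone, and 0.22 for CACNG1 in males alone. In females alone as recorded it was -0.017 for CACNB1, 0.20 for ASPH, 0.26 for TRDN and 0.063 for JPH1. With liver transcripts TRDN was -0.029 as recorded. The log2 ratio to TRDN by drip was -0.026 for CACNG1 and -0.012 for JPH1 as recorded, and by sex -0.010 for ASPH in the 9 animals.

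Correlations that turned under these settings were those of CACNB1 and JPH1 (-0.25 with no scaling factor, -0.13 with liver transcripts, -0.18 without the 2 farthest libraries), ASPH and JPH1 (0.085, 0.47 and 0.13 under the same settings), and ASPH and SRL (0.091 with liver transcripts, 0.068 without the 2 farthest). CACNG1 and SRL were at -0.064 with liver transcripts and CACNG1 and JPH1 at 0.44 without them. TRDN and JPH1 were at -0.78 without liver transcripts and -0.11 with the means of sex and drip removed. In males alone, r was 0.61 for CACNB1 and ASPH, -0.81 for CACNB1 and JPH1, and -0.26 for CACNB1 and SRL. In females alone it was -0.043 for CACNG1 and CACNB1, 0.083 for CACNG1 and TRDN, and -0.41 for TRDN and JPH1. ASPH rests on the fewest counts of the members, 71 to 162 per library.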
